A study of Rattus norvegicus with 30 samples.

Results

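The changes that all gonadectomized rats shared, whether or not a sex hormone was given back, were sought in the adrenal glands of 30 adult Wistar rats. The rats were 12 weeks old when obtained, before surgery. The 20 operated rats were set against the 10 sham-operated rats, and all 30 arrays of the series entered the comparison. The operated rats formed 4 groups of 5: orchiectomized males (ORX), orchiectomized males replaced with testosterone (ORX + T), ovariectomized females (OVX) and ovariectomized females replaced with estradiol (OVX + E). The controls were 5 sham-operated males and 5 sham-operated females. All rats, the sham-operated ones included, were anaesthetized with ketamine and xylazine for surgery. On day 14 the ORX + T rats received a depot of testosterone (5 mg per 100 g of body weight) and the OVX + E rats a depot of estradiol (0.5 mg per 100 g), both under the skin; no injection is described for the other rats, so that the injection and the hormone cannot be told apart. Glands were taken 4 weeks after surgery. Work was done between 10 and 11 am under 14 h of light and 10 h of dark, but the hour and the order in which single rats were killed are not given.

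RNA of the entire gland, cortex and medulla together, was measured on Rat Gene 2.1 ST arrays of Affymetrix, 1 array per rat, and values are given as log2 signals. Signals of 14557 genes were compared, with a precision set by the number of arrays. The cortical genes Cyp11a1, Cyp11b1, Cyp21a1, Fdx1 and Mc2r and the medullary genes Th, Dbh and Chgb lay above the median of their own array in 30 of 30 arrays, and the adipocyte genes Adipoq and Fabp4 in 25 and 1. In RNA of a whole gland, fewer cells of a type and less RNA per cell cannot be told apart. The SD of the log2 signal ran from 1.43 to 1.75 between arrays. It was narrow (1.43 to 1.6) on 10 arrays and 1.67 to 1.75 on the other 20. The narrow arrays were 2 of the 10 sham and 8 of the 20 operated arrays (4 male and 4 female), and results are therefore also given without them. With 1 mean per group, a p-value measures the spread between single rats of a group. In the comparison of operated with sham glands the spread also holds differences between replaced and unreplaced groups. It also holds there any difference between the sexes in the shift. Comparisons of operated with sham glands within a sex likewise hold the differences between replaced and unreplaced groups.

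Most of the genes described here belong to the circadian clock, a loop of transcription factors that runs in nearly every cell, the adrenal cortex included, where it helps to set the daily rhythm of glucocorticoid output. BMAL1 pairs with CLOCK or NPAS2, binds E-boxes and drives the genes of its own repressors (the Per and Cry genes) and of output factors such as Dbp. DBP activates and NFIL3 represses through the D-box, and the ROR and REV-ERB receptors act on Bmal1 through the RORE. Dbp and the Per genes peak in another part of the day than Bmal1 and Npas2, whereas Cry1, which also responds to the RORE, peaks later than the Per genes.

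In operated glands 5 of 14557 genes passed the test against sham-operated glands (0.0343% of the genes tested), and 4 of these 5 are clock genes. Dbp, Mturn and Per3 rose (3 genes, 0.0206%), whereas Bmal1 and Npas2 fell (2 genes, 0.0137%). Dbp was 3.10-fold higher and Bmal1 2.68-fold lower, and these 2 genes (0.0137%) were past a fold of 2. A gene passed at an adjusted p under 0.05 in limma, with the arm of the study (testosterone or estrogen, that is, males or females) as a covariate. Without adjustment 479 genes (3.29%) had a p under 0.05. The plot of all genes shows the 5 genes apart from the rest of the array. The next genes in the order of p lay outside the threshold: Pgbd5 at a log2 difference of -0.51 (adjusted p = 0.0877), Rgs4 at -0.52 (0.121) and Kcnq1 at -0.43 (0.213). Among the genes that passed, the highest adjusted p was 0.00606, for both Per3 and Npas2. Other settings gave 17 genes (0.117%) with 1 mean per group, 17 (0.117%) after quantile normalization (8 up and 9 down), 11 (0.0756%) without the narrow arrays (7 up and 4 down), 30 (0.206%) with array SD as a covariate (17 up and 13 down) and 128 (0.879%) with array weights (46 up and 82 down). The same 5 genes were among those that passed in each of these 5 settings, and 12 further genes (0.0824%) passed in at least 3 of them.

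**Figure D1:**
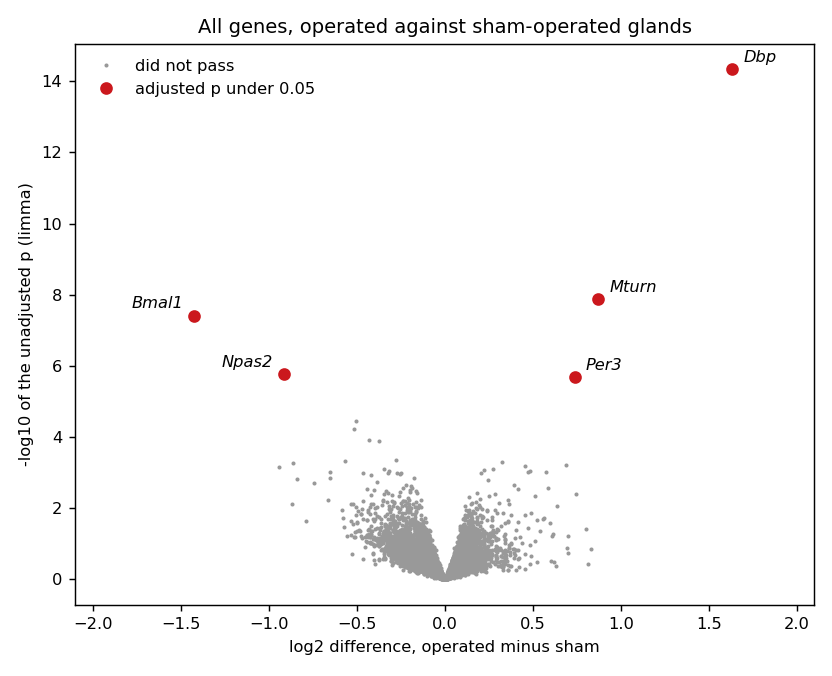
Log2 difference between operated and sham-operated glands (x axis) and -log10 of the unadjusted limma p (y axis) of each of 14557 genes. The 5 genes with an adjusted p under 0.05 are in red and named: Dbp, Mturn and Per3 on the right, Bmal1 and Npas2 on the left.

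Promoter sequences are shown for 3 of the genes, those of the 5 genes that passed and of the clock phase lists whose window held a motif of the clock or of the cyclic AMP pathway. Each is the 250 bases before the transcription start from RefSeq (build GRCr8), and capitals mark the matched motif. The motifs searched on both strands were the E-box CACGTG, the E'-box CACGTT, the D-box TTATGTAA, the RORE core TAGGTCA and the cyclic AMP response element (CRE) TGACGTCA. Bmal1 (chr1:176766078-176766327, plus strand) has a RORE core 16 to 10 bases before the start, Per2 (chr9:99496994-99497243, minus strand) a D-box 192 to 185 and an E'-box 62 to 57 bases before it, and Mturn (chr4:85137625-85137874, plus strand) a CRE 114 to 107 bases before it.
Bmal1: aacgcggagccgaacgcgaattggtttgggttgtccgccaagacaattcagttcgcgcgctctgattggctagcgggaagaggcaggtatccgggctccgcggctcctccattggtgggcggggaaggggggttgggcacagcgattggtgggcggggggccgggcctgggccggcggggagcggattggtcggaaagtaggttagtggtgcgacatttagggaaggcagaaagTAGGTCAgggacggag
Per2: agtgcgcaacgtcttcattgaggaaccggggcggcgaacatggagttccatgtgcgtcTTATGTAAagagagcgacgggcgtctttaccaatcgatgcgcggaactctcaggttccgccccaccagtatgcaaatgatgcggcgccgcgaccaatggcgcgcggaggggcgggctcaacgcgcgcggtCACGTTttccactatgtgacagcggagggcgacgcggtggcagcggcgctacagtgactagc
Mturn: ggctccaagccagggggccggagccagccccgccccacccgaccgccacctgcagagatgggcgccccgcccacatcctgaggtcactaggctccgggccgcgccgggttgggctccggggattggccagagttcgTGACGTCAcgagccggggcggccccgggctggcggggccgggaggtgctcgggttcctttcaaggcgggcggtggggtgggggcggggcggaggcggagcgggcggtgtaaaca
A RORE core occurred in 2.26% of 33469 windows of this length, a D-box in 0.828%, an E'-box in 4.07%, a CRE in 1.59% and an E-box in 5.59%. The windows of Dbp, Npas2, Per3, Per1, Clock and Nfil3 held none of these letters, and no window was found for Cry1. Matches also occurred in the windows of 4 other named genes: Bhlhe40 and Slc9a3 (E-box), Rnf8 (RORE core) and Spetex2g (CRE). These matches are descriptions of the sequence and were not tested against the signals.

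Dbp, the clock output factor that acts on D-boxes, rose most. In control males its log2 signal was 8.84, 8.57, 8.0, 8.82 and 8.93, and in the 10 operated males it ran from 9.81 to 10.29 with a median of 10.08. In control females it was 7.55, 7.28, 7.46, 7.47 and 6.92, and in the 10 operated females it ran from 8.61 to 9.77 with a median of 9.14. Every operated gland lay above every sham gland of its sex. Dbp was the only gene of 14557 (0.00687%) with no overlap in either sex. The log2 difference was 1.63 (SE 0.11, 95% interval 1.40 to 1.86, adjusted p = 6.8e-11), and 1.55 without the narrow arrays (adjusted p = 1.11e-07).

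Per3, a period protein and a target of BMAL1, rose by 0.74 (SE 0.13, interval 0.48 to 1.0, adjusted p = 0.00606). In control males its log2 signal was 5.89, 5.69, 5.61, 5.82 and 5.95, and in operated males 6.09 to 7.44 (median 6.85). In control females it was 5.61, 5.33, 5.47, 5.89 and 5.78, and in operated females 5.70 to 6.47 (median 6.00). The groups were apart in males and overlapped in females, where 6 of 10 operated glands lay above every sham gland. Without the narrow arrays the difference was 0.85 (adjusted p = 0.00412).

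Bmal1, the activating partner of CLOCK and NPAS2, fell by 1.42 on the log2 scale (SE 0.19, interval -1.82 to -1.03, adjusted p = 0.000187). In control males it was at 7.84, 8.01, 7.24, 7.88 and 7.80, and in operated males at 5.17 to 6.71 (median 5.83). In control females it was at 8.47, 8.60, 8.66, 8.52 and 7.45, and in operated females at 6.41 to 8.10 (median 7.47). All operated males lay below all sham males. In females 5 of 10 operated glands lay below every sham gland, and the lowest sham gland of each sex, 7.24 and 7.45, came from the narrow array of its group. Without the narrow arrays the difference was -1.32 (adjusted p = 0.000511).

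Npas2, which can stand in for CLOCK beside BMAL1, fell by 0.91 on the log2 scale (SE 0.15, interval -1.23 to -0.60, adjusted p = 0.00606). In control males it was at 8.98, 8.75, 8.41, 8.90 and 8.84, and in operated males at 6.59 to 7.93 (median 7.53). In control females it was at 9.24, 9.35, 9.44, 9.36 and 8.86, and in operated females at 8.23 to 9.26 (median 8.87). Npas2 followed the pattern of Bmal1, with groups apart in males and 5 of 10 operated females below every sham female. Its lowest sham gland of each sex, 8.41 and 8.86, also came from the narrow array of its group. Without the narrow arrays the difference was -0.73 (adjusted p = 0.00412).

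Mturn, which codes for maturin, a protein described in frog embryos as a promoter of neuronal differentiation, was the remaining gene of the 5. It rose by 0.87 (SE 0.11, interval 0.64 to 1.1, adjusted p = 9.74e-05). In control males its log2 signal was 7.59, 7.97, 7.58, 7.97 and 8.02, and in operated males 8.33 to 8.94 (median 8.57). In control females it was 7.08, 7.50, 7.60, 6.85 and 6.53, and in operated females 7.38 to 8.45 (median 8.19). All operated males and 9 of 10 operated females lay above every sham gland of their sex. Without the narrow arrays the difference was 0.91 (adjusted p = 3.71e-05). Over all genes, 18 (0.124%) did not overlap in males and 3 (0.0206%) did not overlap in females.

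**Figure D2:**
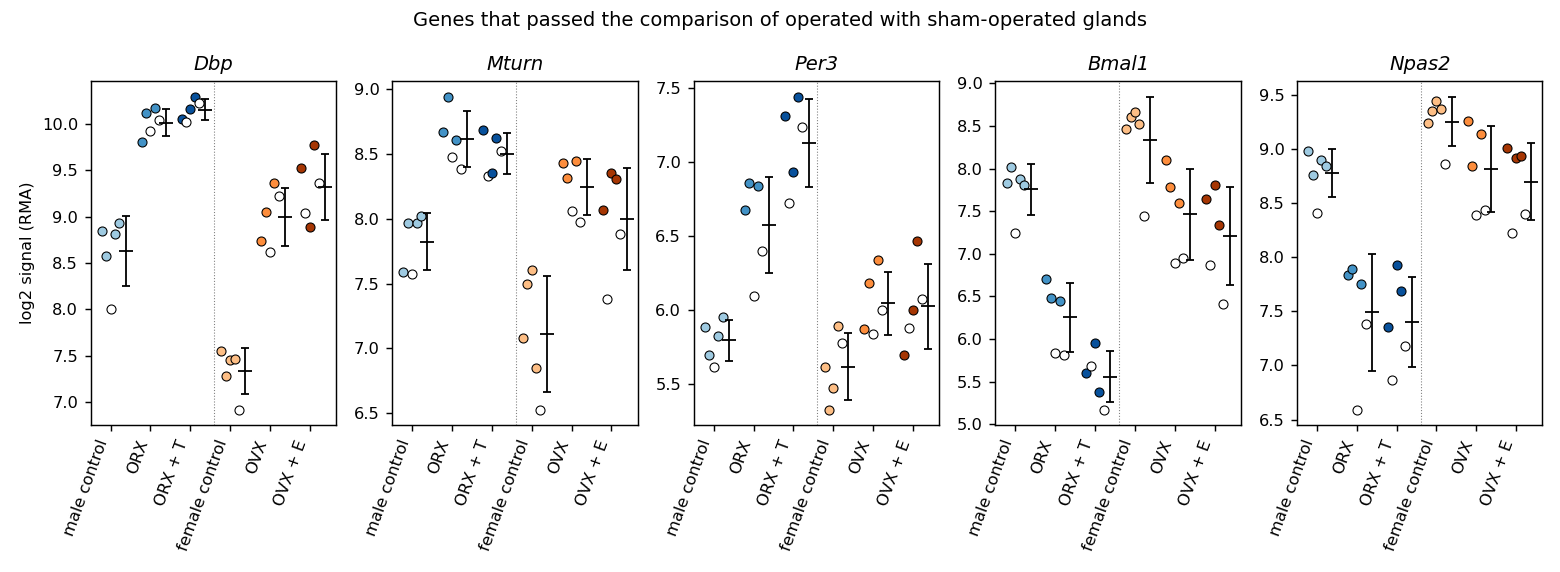
Log2 signal (y axis of each panel, with its own range) of the 5 genes in each rat, by group (x axis). Points are single arrays, with the 10 narrow arrays in white, and the bar beside them is the mean ± SD (n = 5). Dbp lies higher in every operated gland than in any sham gland of the same sex, and Bmal1 and Npas2 lie lower in every operated male than in any sham male.

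The difference from sham had the same direction in all 4 operated groups for each of the 5 genes, but did not pass in every group. For each gene the 4 groups were set against the sham group of their own sex, so ORX and ORX + T share their 5 sham males, and OVX and OVX + E their 5 sham females. Dbp was higher by 1.38 in ORX, 1.52 in ORX + T, 1.66 in OVX and 1.98 in OVX + E (SE 0.17 each), and passed in each of these 4 comparisons (adjusted p at most 0.000138). Over all genes, 8 passed in ORX (0.055%), 137 in ORX + T (0.941%), 24 in OVX (0.165%) and 34 in OVX + E (0.234%). Mturn was higher by 0.79, 0.68, 1.13 and 0.89 in the same order (SE 0.18 each), and passed in OVX (adjusted p = 0.00292) and OVX + E (0.0265) but not in ORX (0.105) or ORX + T (0.0846). In ORX and ORX + T, Bmal1 differed by -1.5 (adjusted p = 0.0161) and -2.20 (1.25e-05), and in OVX and OVX + E by -0.88 (0.43) and -1.13 (0.0949), with an SE of 0.27 each. Npas2 differed by -1.29 in ORX (adjusted p = 0.0144) and -1.38 in ORX + T (0.000879), and by -0.44 in OVX (1) and -0.56 in OVX + E (0.892), with an SE of 0.23 each. Per3 differed by 0.78 in ORX (adjusted p = 0.0529), 1.34 in ORX + T (6.92e-06), 0.43 in OVX (0.839) and 0.41 in OVX + E (0.83), with an SE of 0.16 each. In OVX and OVX + E, then, only Dbp and Mturn of the 5 genes passed.

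Dbp, Mturn, Per3 and Bmal1 passed the test of operated against sham glands and, in each of the 4 groups, had the same direction and at least 0.5 of the pooled difference (4 genes, 0.0275%). Npas2 missed the second condition through OVX alone. Without regard to the test, 1118 genes (7.68%) met the condition on the 4 groups and 3904 (26.8%) had the same direction in all of them.

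The question whether a replaced hormone returned these genes to the sham level was addressed in a fit with 1 mean per group. The 5 genes were chosen on these same operated and sham arrays, so their p-values against sham are no independent evidence here. With both sexes pooled, replaced glands (ORX + T and OVX + E) still differed from sham glands in all 5 genes: Dbp by 1.75 (adjusted p = 1.89e-10), Mturn by 0.78 (0.00112), Per3 by 0.87 (3.29e-05), Bmal1 by -1.66 (5.44e-06) and Npas2 by -0.97 (0.00137). Glands without replacement (ORX and OVX) differed by 1.52 (1.54e-08), 0.96 (0.000184), 0.61 (0.00844), -1.19 (0.00196) and -0.86 (0.00887) in the same order. Taken alone, ORX + T passed for Dbp, Per3, Bmal1 and Npas2 and OVX + E for Dbp and Mturn, so that no replaced group passed for all 5. In all, 87 genes (0.598%) passed for replaced and 41 (0.282%) for unreplaced glands against the same sham arrays.

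The direct comparison of replaced with unreplaced glands, in which no sham array takes part, passed for 336 genes (2.31%), none of them among the 5. The 5 genes were chosen in a fit that leaves the difference between replaced and unreplaced glands in the spread. Genes that a hormone moves therefore passed that choice less easily. The absence of the 5 from the 336 is thus partly fixed by the choice and is no independent evidence. Dbp differed by 0.23 between replaced and unreplaced glands (interval -0.02 to 0.48, adjusted p = 0.533) and Mturn by -0.18 (-0.44 to 0.09, adjusted p = 0.729). Per3 differed by 0.27 (0.04 to 0.50, adjusted p = 0.333), Bmal1 by -0.47 (-0.87 to -0.08, adjusted p = 0.293) and Npas2 by -0.10 (-0.44 to 0.23, adjusted p = 0.941). For Dbp, Per3, Bmal1 and Npas2 the estimate for replaced glands thus lay farther from sham than that for unreplaced glands, and for Mturn nearer, but none of these differences passed the test. With both sexes pooled, each interval ends short of the size that would carry the estimated unreplaced mean back to the sham mean. The choice of the 5 genes bears on these intervals too, and the unreplaced means have an error of their own. Whether hormone restores these genes was therefore not tested independently here. In females the margin was smaller for 2 genes. OVX + E minus OVX was -0.12 for Npas2 (-0.59 to 0.35), with OVX at -0.44 against sham (-0.91 to 0.03). For Per3 it was -0.02 (-0.35 to 0.30), with OVX at 0.43 (0.10 to 0.76). In males ORX + T minus ORX pointed away from sham for Per3 (0.56, 0.23 to 0.88) and Bmal1 (-0.70, -1.26 to -0.14), without passing (adjusted p = 0.0713 and 0.354).

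**Figure D3:**
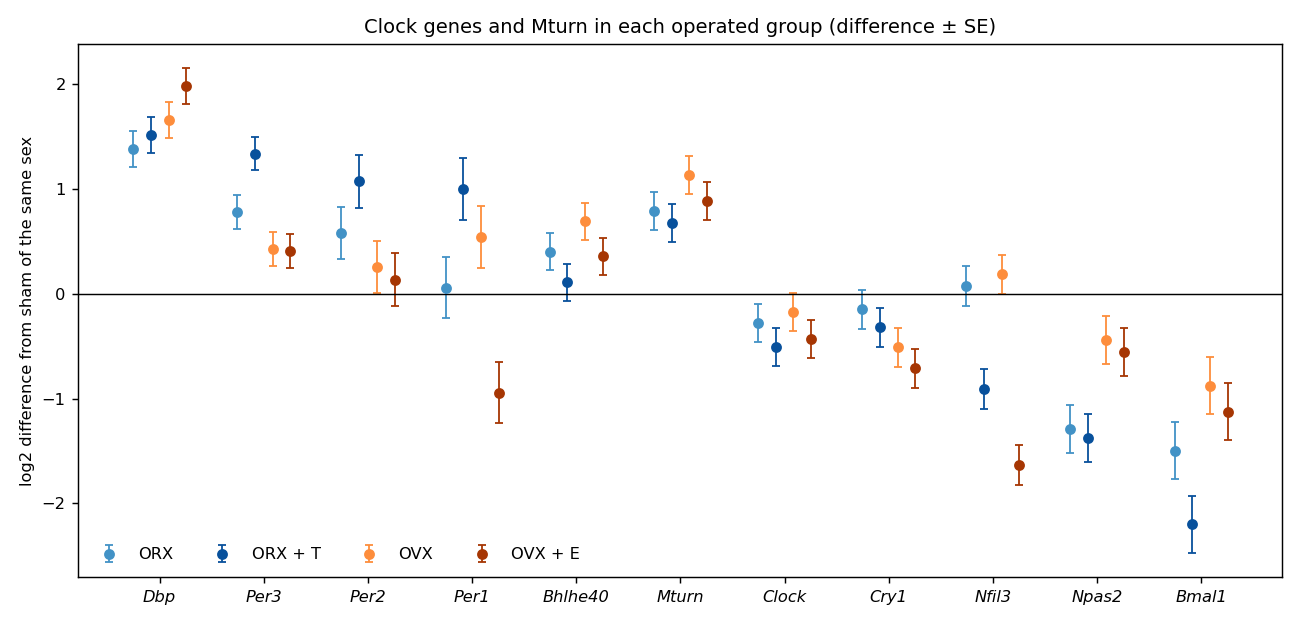
Log2 difference of each operated group from the sham group of its sex (y axis, ± SE from limma, n = 5 against 5) for Mturn and 10 clock genes (x axis). Dbp, Per3 and Mturn lie above 0 and Bmal1 and Npas2 below 0 in all 4 groups, while Per1 and Nfil3 lie on both sides of 0.

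The other measured genes of the clock were described from lists of genes in phase with Dbp, genes in phase with Bmal1 and other regulators. Of 11 listed genes in phase with Dbp, 4 were measured here, of which 2 rose (Dbp and Per3) and 2 did not pass. The list median was 0.63, against -0.01 over all genes, and all 4 lay above 0 also with array weights, median centring, quantile normalization, array SD as a covariate and without the narrow arrays. Per2, another period gene, was at 0.51 (SE 0.17, adjusted p = 0.959), with 0.58 in ORX, 1.07 in ORX + T, 0.26 in OVX and 0.13 in OVX + E. It passed in ORX + T (adjusted p = 0.0274). In sham males Per2 signals were 5.2 to 5.91 and in operated males 4.90 to 7.01, and 9 of the 10 operated males lay above every sham male. The lowest operated male was ORX replicate 3, a narrow array.

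Per1, which responds to cyclic AMP and glucocorticoids as well as to the clock, had no common direction. Its difference from sham was 0.06 in ORX, 1.0 in ORX + T, 0.55 in OVX and -0.94 in OVX + E (SE 0.29 each), and the pooled value was 0.17 (SE 0.27, adjusted p = 0.959). Between OVX + E and OVX, Per1 fell by 1.49 on the log2 scale (SE 0.29, adjusted p = 0.0033; 246 genes, 1.69%, passed in this comparison). Between ORX + T and ORX it differed by 0.94 in the other direction, without passing (adjusted p = 0.126; 299 genes, 2.05%, passed).

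Of 7 listed symbols of genes in phase with Bmal1 (Bmal1 and Arntl name the same gene), 5 were measured, of which 2 fell (Bmal1 and Npas2) and 3 did not pass. All 5 differences were below 0 (median -0.57), also with array weights, median centring, quantile normalization, array SD as a covariate and without the narrow arrays. Clock, the main partner of Bmal1, was at -0.35 (SE 0.11, adjusted p = 0.959), with -0.28, -0.51, -0.17 and -0.43 in ORX, ORX + T, OVX and OVX + E. Cry1, a repressor, was at -0.42 (SE 0.12, adjusted p = 0.538), with -0.15, -0.32, -0.51 and -0.71. Sham signals of Clock ran from 8.17 to 8.83 in males and 8.18 to 8.87 in females, and the operated signals from 7.84 to 8.62 and 7.76 to 8.74, so that the groups overlapped in both sexes.

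Nfil3, the D-box repressor, had no common direction in the 4 groups. It was at 0.07 in ORX and 0.19 in OVX against sham, and at -0.91 in ORX + T (adjusted p = 0.00994) and -1.63 in OVX + E (adjusted p = 2.16e-05), with an SE of 0.19 each. Replaced glands lay below unreplaced glands by 1.40 on the log2 scale (SE 0.13, interval -1.67 to -1.13, adjusted p = 1.12e-07). Its pooled difference between operated and sham glands, -0.57 (SE 0.26, adjusted p = 0.959), is thus a mean over groups that differed.

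Of 12 listed symbols of other clock regulators (Arntl2 and Bmal2 name the same gene), 3 were measured and none passed. Cry2, a repressor, was at 0.41 (SE 0.18) and Bhlhe40 at 0.39 (SE 0.12), the latter coding for a repressor that competes for E-boxes, and Timeless was at 0.02 (SE 0.06). The hour of death and the operation cannot be told apart for any clock gene, since the order in which the groups were killed is not given.

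The sexes were then compared, with 10 operated against 5 sham rats in each. In males 4 genes passed (0.0275%): Bmal1 fell by 1.85 on the log2 scale (SE 0.26, adjusted p = 0.000478) and Npas2 by 1.33 (SE 0.19, 0.000707), and Dbp rose by 1.45 (SE 0.15, 4.44e-06) and Per3 by 1.06 (SE 0.16, 0.00118). In females 2 genes passed (0.0137%), Dbp at 1.82 (SE 0.15, 2.24e-08) and Mturn at 1.01 (SE 0.16, 0.0043). The female differences of Bmal1, Npas2 and Per3 were -1.0 (SE 0.26, adjusted p = 0.953), -0.50 (SE 0.19, 1) and 0.42 (SE 0.16, 1), and the male difference of Mturn was 0.73 (SE 0.16, 0.13).

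No gene passed the test of the difference between the sexes (0 of 14557, 0%, by limma, with 164 genes, 1.13%, at an unadjusted p under 0.05). The male difference minus the female difference was -0.85 for Bmal1 (interval -1.59 to -0.10), -0.83 for Npas2 (-1.39 to -0.27), 0.64 for Per3 (0.18 to 1.11), -0.37 for Dbp (-0.82 to 0.07) and -0.28 for Mturn (-0.73 to 0.18), with an adjusted p of 1 for each. Bmal1, Npas2 and Per3 were thus shifted more in males by the estimates alone.

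**Figure D4:**
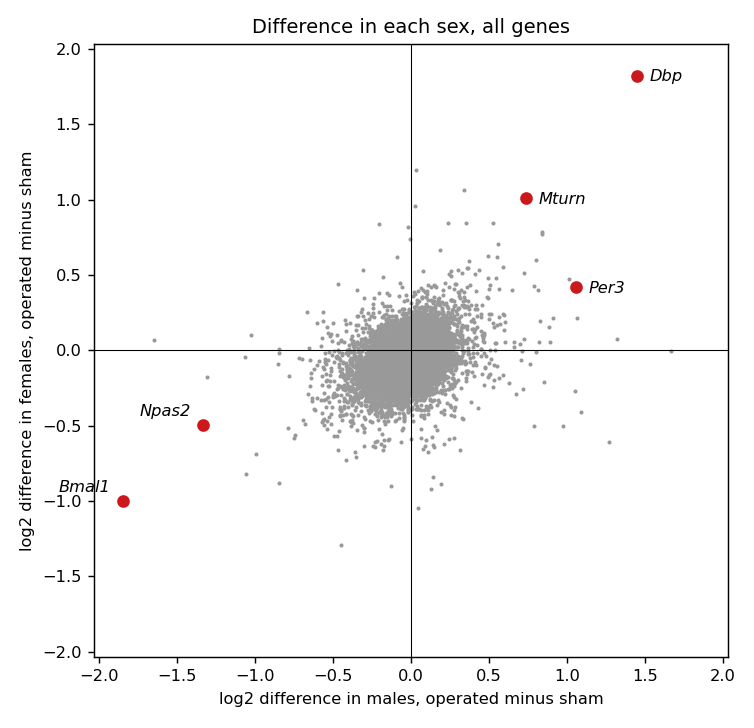
Log2 difference between operated and sham-operated glands in males (x axis) and in females (y axis) for 14557 genes. The 5 named genes passed in the comparison of both sexes together, and each lies in the upper right (Dbp, Mturn, Per3) or lower left (Bmal1, Npas2) part.

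The comparisons of the sexes share no array, and the plot of males against females gives both differences for each gene. Across 14557 genes, which are not independent replicates, the male and female differences had a Pearson's r of 0.395 and a Spearman's rho of 0.398. In each sex the narrow arrays were 1 of 5 sham and 4 of 10 operated arrays. Their part in these correlations was not tested. Of the 20 genes of lowest p in males, 16 had the same direction in females and 7 of these an unadjusted p under 0.05 there. Of the 20 genes of lowest p in females, 14 had the same direction in males, 8 of them with an unadjusted p under 0.05. Over all genes, 64.3% had the same direction in both sexes, 1.11% also an unadjusted p under 0.05 in females and 1.92% one in males. Both sets contain Dbp, Mturn and Bmal1 alongside genes that did not pass.

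Other functions of the gland were described by 19 further lists, and in none did a member pass the test of operated against sham glands. Of 14 measured genes of corticosteroid synthesis and ACTH reception none passed (median -0.04), nor did any of 15 genes of cholesterol synthesis and uptake (median -0.01) or of 16 genes of fatty acid and triglyceride metabolism (median -0.02). The cholesterol list changed with the arrays used: 7 of 15 genes lay above 0 in all arrays, but 15 of 15 without the narrow arrays (median 0.18), 14 of 15 with array weights (0.16), 14 of 15 with array SD as a covariate (0.14), 11 of 15 after quantile normalization (0.08) and 7 of 15 with median centring (-0.04), and none passed in any of these. Cyp11b2, the aldosterone synthase, had the lowest value among the steroidogenic genes, -0.41 (SE 0.30, adjusted p = 0.959), with 0.06 in ORX, -0.41 in ORX + T, 0.20 in OVX and -1.48 in OVX + E. Pex11a, a peroxisomal gene with the highest value of the fat list, 0.61 (SE 0.31, adjusted p = 0.959), was at -0.46 in ORX, 2.04 in ORX + T, 0.31 in OVX and 0.54 in OVX + E. Idi1 of the cholesterol list, at -0.02 pooled, was at 0.06, 0.26, 1.03 and -1.42 in the same order. Pmvk of that list, at -0.06 pooled, was at -0.07, 0.05, -0.13 and -0.11. The pooled medians thus do not describe single groups.

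Genes that respond to handling, temperature or circulating glucocorticoids were examined beside the clock genes. Of 15 immediate early genes none passed (median -0.01), and Fos had the lowest value, -0.87 (SE 0.30, adjusted p = 0.959), with -0.19 in ORX, -0.70 in ORX + T, -1.14 in OVX and -1.43 in OVX + E. Of 10 glucocorticoid-responsive genes none passed (median -0.01, and 0.12 without the narrow arrays). Fkbp5, a chaperone gene induced by the glucocorticoid receptor, was at 0.04, 1.01, 0.19 and -0.68 in the same order. Of 8 temperature-responsive RNA-binding proteins and chaperones none passed (median -0.02). A pooled value near 0 can join groups that differed. Bag3, at 0.06 pooled, was at -0.40, 0.34, 1.17 and -0.88 in the same order. Cirbp, also at 0.06 pooled, was at 0.08, 0.19, -0.01 and -0.02.

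Genes of the gonadal type, which mouse adrenals can express after gonadectomy, were measured in 13 of 17 cases. None passed, and 11 of 13 lay above 0 with a median of 0.04 (9 of 13, median 0.03, without the narrow arrays and 8 of 13 with median centring). Inha, the inhibin alpha subunit, had the highest value, 0.48 (SE 0.13, adjusted p = 0.524). It was at 0.69 in ORX, 0.05 in ORX + T, 0.73 in OVX and 0.46 in OVX + E, and passed in unreplaced against sham glands (0.71, SE 0.13, adjusted p = 0.00465). Replaced minus unreplaced glands gave -0.46 (interval -0.72 to -0.20, adjusted p = 0.0507).

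No marker of the medulla passed. All 9 measured chromaffin markers were below 0 (median -0.30), and 8 of 9 with a median of -0.20 without the narrow arrays. Without adjustment 6 of the 9 had a limma p under 0.05, against 3.29% of all genes. Markers of a single cell type are not independent of one another, and this count is not given without the narrow arrays. Slc18a1, the vesicular amine transporter of chromaffin cells, was lowest at -0.49 (SE 0.18, adjusted p = 0.959) and Dbh, the noradrenaline-forming enzyme, was at -0.30 (SE 0.14, 0.959). The mean log2 signal of the 9 markers was 7.27 to 7.89 in sham males, 6.97 to 7.64 in operated males, 7.12 to 7.66 in sham females and 6.76 to 7.65 in operated females, so the groups overlapped. The 6 cortical markers had a median of -0.07 and mean signals of 10.70 to 11.03 in sham and 10.30 to 11.07 in operated glands. The part of the medulla in the differences of the clock genes and Mturn was not tested.

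Markers of the remaining cell types also gave no gene that passed. The list medians were 0.01 for 9 capsule and fibroblast, -0.13 for 7 endothelial, -0.04 for 9 macrophage, 0.04 for 6 lymphocyte, -0.01 for 9 adipocyte and 0.00 for 4 red blood cell markers. Of the capsule and fibroblast markers 6 of 9 lay above 0, and 9 of 9 without the narrow arrays (median 0.09) but 2 of 9 with median centring. All 7 endothelial markers lay below 0, but 4 of 7 without the narrow arrays and 3 of 7 with array weights (medians 0.00). All 8 interferon-induced genes also lay below 0 (median -0.15), with a median of -0.38 in males and 0.03 in females, and 7 of 8 lay below 0 without the narrow arrays and 5 of 8 with array weights. Cell cycle genes (9 measured, median -0.03), the integrated stress response (11, median -0.09) and hormone receptors (2, median 0.04) had no member that passed. These pooled values can also join groups that differed. Gdf15 of the stress list, at -0.06 pooled, was at -0.03 in ORX, -0.66 in ORX + T, 1.91 in OVX and -1.46 in OVX + E. Chac1, at 0.09 pooled, was at 0.07, 0.13, 0.00 and 0.19 in the same order.

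**Figure D5:**
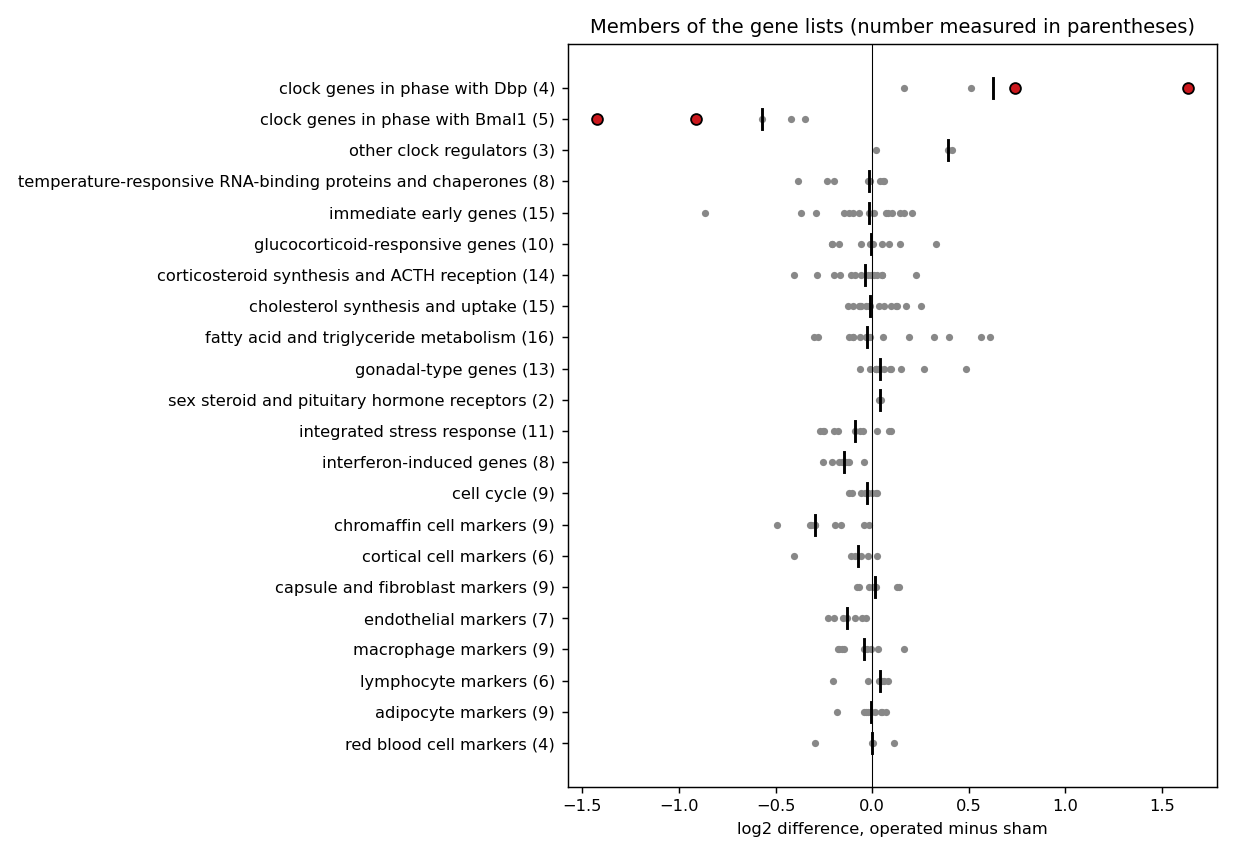
Log2 difference between operated and sham-operated glands (x axis) of each measured member of 22 gene lists (y axis). Each point is a gene, red where it passed at an adjusted p under 0.05, and the black bar is the list median. The 4 red points are Dbp and Per3 on the right and Bmal1 and Npas2 on the left.

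In the plot of the gene lists Dbp and Bmal1 have the highest and lowest differences of the listed genes, and most other clock genes lie within the range of other lists, where Fos was at -0.87 and Pex11a at 0.61. Members and lists were chosen with earlier results on these rats known, so that the direction of the clock lists is no independent evidence.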

How the data were processed

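Total RNA of entire adrenals, 1 gland sample per rat, was hybridized to 30 arrays, 5 per group. The authors obtained expression values with RMA (affy package), which corrects background, normalizes arrays and combines probes, and the deposited values are log2 signals (2.81 to 12.82, none missing). The genome build of the annotation is not given in the sources used here. Which arrays were normalized together is not given either, and their SD differed. Of 36685 probe sets, 14824 with exactly 1 gene symbol were used (829 had several, 21032 none). The brightest stood for its gene where a gene had several (234 genes).

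Operated minus sham differences, with arm as a covariate, came from limma 3.58.1 in R 4.3.3 (27 residual and 2.9 prior degrees of freedom), with Benjamini-Hochberg adjustment over 14557 genes. Single groups and replaced glands were compared with 1 mean per group (24 and 2.92 degrees of freedom), and the sexes with an arm by operation term. The study's own thresholds were a fold of 2 and an adjusted p of 0.05; the fold was not required here. On simulated data of 14557 genes, 98 of 100 changed by 1 and 99 of 100 changed by 1.5 on the log2 scale were recovered. This was for operated against sham, with 12 false calls among the genes left unchanged. The simulated noise was independent and had the spread within groups. It held no hormone effect, no difference between the sexes and no narrow arrays, so it does not give the recovery in the real arrays.

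The comparison, the gene lists (22) and the rule for named genes were chosen with earlier results of these data known. Genes named by rule were those that passed and the members of both clock phase lists. Those that passed only under other settings, the list members with extreme values and the motifs were chosen after values or sequences had been seen. Listed genes without a probe set of 1 symbol were not analysed here. RefSeq promoters (GRCr8) were found by Entrez gene number for 26 of the 30 named genes. The arrays have no detection p, so that weak signals have no stated floor. Alternatives were 1 mean per group, trended and robust variances, array weights, a replicate block, the 60% brightest genes, every probe set, the mean over probe sets, median centring, quantile normalization, array SD as a covariate, omission of the narrow arrays and omission of each array in turn.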

Additional observations from a re-analysis of the deposited data

Results flagged for a closer look

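A sample was singled out where its gap to the nearest of the other 4 of its group exceeded 0.71 of the range of the group. This held in 18 of 180 groups of values (30 named genes in 6 groups), where chance alone gives about 1 in 20, and 10 of the 18 lay on narrow arrays. Among clock genes, Bmal1 was low in male control replicate 3 (7.24, nearest 7.80) and in female control replicate 5 (7.45, nearest 8.47), both narrow arrays. Without these arrays in turn its difference between operated and sham glands was -1.45 (adjusted p = 0.000401) and -1.56 (adjusted p = 1.4e-05). Clock was low on the same arrays (8.17 and 8.18), as were Ifrd2 (6.07) and Rgs4 (8.22) in male control replicate 3 and Ninl (5.6) in female control replicate 5. The remaining values on narrow arrays were Bhlhe40 in ORX + T replicate 2 (8.21) and Tns2 (8.57) and Fbxl17l1 (4.48) in ORX replicate 3, all low.

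Of the 8 on other arrays, Hes1 was high in male control replicate 1 (7.89, nearest 6.49). Hes1, a repressor in the Notch pathway, had an operated minus sham difference of 0.71 without this array and then passed (adjusted p = 0.0209). The others were Hp in male control replicate 1 (5.47), Pgbd5 in ORX replicate 2 (6.04), Ninl in ORX replicate 2 (5.69), Spetex2g in ORX replicate 1 (4.99), Tns2 (9.08) and Mc5r (5.07) in female control replicate 4, all high, and Ninl in ORX + T replicate 3 (4.41), which was low.

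Among 21861 probe sets without a single gene symbol, which the comparisons of the report do not use, 2 passed between operated and sham glands when all 36685 probe sets were tested. Probe set 17882197 rose by 0.87 (adjusted p = 0.00191), with 0.70 in ORX, 0.96 in ORX + T, 1.13 in OVX and 0.71 in OVX + E. Probe set 17830985 rose by 0.64 (adjusted p = 0.0178), with 0.67, 1.21, 0.35 and 0.35 in the same order. Neither carries a gene name in the annotation used here.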

How the results depend on the processing

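Dbp, Mturn, Per3, Bmal1 and Npas2 passed with the same direction under every alternative run, 30 omissions of 1 array included. The number of genes that passed between operated and sham glands was 5 (5 to 6 when each array was left out), 5 with the replicate block, 17 with 1 mean per group, 17 with quantile normalization, 11 without the narrow arrays, 30 with the array SD as a covariate and 128 with array weights. Genes shifted in all 4 groups numbered 4 (3 to 6 with 1 array left out), 11 with quantile normalization, 9 without the narrow arrays, 16 with the array SD and 55 with array weights. The cause was not tested.

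For replaced against sham glands, 87 genes became 599 with array weights, 133 with the replicate block, 40 with median centring, 416 with quantile normalization, 822 with the array SD and 448 without the narrow arrays (52 without ORX + T replicate 5 to 122 without female control replicate 5). For unreplaced glands, 41 became 1139, 65, 17, 291, 684 and 574 in the same order, 254 over every probe set, and 25 (without ORX replicate 1 or 2) to 46 with 1 array left out. For replaced against unreplaced glands, 336 became 1949 with array weights, 223 with median centring, 1208 with quantile normalization, 2307 with the array SD, 1645 without the narrow arrays, 682 over every probe set, and 280 to 419 with 1 array left out. In males, 4 became 172 with array weights, 11 with quantile normalization, 30 with the array SD, 13 without the narrow arrays, and 4 to 8 with 1 array left out (8 without male control replicate 1). In females, 2 became 12 with array weights, 1 with median centring, 7 with quantile normalization, 7 with the array SD, and 1 (without female control replicate 4 or 5) to 3 (without replicate 1). For the difference between the sexes, 0 became 7 with array weights, 1 with quantile normalization, 2 with the array SD, 1 without the narrow arrays and 0 with any 1 array left out.

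Replicate numbers were not taken to pair rats: deviations of arrays with the same number correlated above 0.1 in 48 of 75 pairs (-0.76 to 0.87), and 10 of 30 arrays correlated best with their own number. The replicate block changed none of the calls of the 5 genes. Of the named genes that did not pass, 55 results under other settings and 6 with 1 array left out passed, and none reversed.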

Other observations

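Genes that passed only under settings other than that of the main comparison are given here as values; they were chosen after the values were seen. The 12 genes that passed in at least 3 of the 5 settings named in the report, but not in the main comparison, were Bhlhe40, Clock, Fat4, Hes1, Ifrd2, Inha, Olah, Or4a2, Pgbd5, Rgs4, Rnf8 and Tns2. In the main comparison Bhlhe40, an E-box repressor of the clock, was at 0.39 (adjusted p = 0.845), Hes1 at 0.57 and Olah, a thioesterase of fatty acid synthesis, at 0.45. Rgs4, a brake on G protein signalling, was at -0.52 and Pgbd5, a gene derived from a transposase, at -0.51. Rgs4 lay below every sham female in 10 of 10 operated females (7.16 to 8.06 against 8.13 to 8.67) and below every sham male in 6 of 10 operated males. Pgbd5 lay below every sham male in 10 of 10 operated males (5.61 to 6.04 against 6.10 to 6.64) and below every sham female in 0 of 10 operated females.

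With 1 mean per group, several of the 17 genes passed through single groups and not through a common shift. Acsbg1, an acyl-CoA synthetase, was at 3.98 in ORX + T but at -0.65, 0.11 and -0.12 in ORX, OVX and OVX + E. Slc9a3, a sodium-proton exchanger, was at 3.21 in ORX + T and at -0.57, 0.08 and 0.06 in the other groups. Hp, Fbxl17l1 and Mc5r were likewise at 1.70, 1.71 and 0.81 in ORX + T, and between 0.02 and 0.23 in ORX, OVX and OVX + E. Nrep was at -0.12 in ORX and at 1.18, 0.70 and 0.99 in ORX + T, OVX and OVX + E.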
